A study of Homo sapiens with 18 samples.

Results

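Replication-independent histone variants are encoded by genes that mostly lie outside the large histone clusters, are expressed outside S phase as well and can give polyadenylated mRNA. The 9 genes described here were chosen by name from the counts table. They encode the linker histones H1.0 (H1F0) and H1X (H1FX), the H2A variants H2A.Z.1 (H2AFZ), H2A.Z.2 (H2AFV), H2A.X (H2AFX), macroH2A1 (H2AFY) and H2A.J (H2AFJ), and the replacement histone H3.3 (H3F3A and H3F3B). All 9 were among the 12081 genes tested, out of 58815 genes in the table. The RNA came from LM2, BrM3 and BoM, which were derived from the human triple-negative breast cancer line MDA-MB-231 by selection for growth in lung, brain and bone respectively. The cells carried a doxycycline (DOX) inducible hairpin in the pINDUCER10 lentivirus, either the control shCtrl or shWDR5-1 against WDR5, a WD40 repeat scaffold protein of histone H3 lysine 4 methyltransferase complexes. Both groups received DOX at 1 μg/mL for 3 days, with 3 replicates per line and hairpin harvested at different passages (18 libraries). A single hairpin against WDR5 was sequenced, and each group is a transduced cell population of 1 line.

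Histone variants can take the place of the canonical histones of S phase in chromatin, also outside DNA replication. H3.3 is deposited at active genes and enhancers by HIRA and at telomeres and pericentric heterochromatin by DAXX and ATRX, and H2A.Z is placed around transcription start sites by the SRCAP and p400 complexes. H2A.X is phosphorylated around DNA double-strand breaks, macroH2A carries a large non-histone domain and is linked to silent chromatin, and H1.0 is the linker histone known to accumulate in differentiated and slowly dividing cells.

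Library totals ranged from 17485841 to 119667013 counts. WDR5 itself fell in each line. Its level, in CPM (counts scaled to a library of 1000000 counts on tested genes, mean ± SD, n = 3), went from 125 ± 11.1 to 23.1 ± 2.24 in LM2, while BrM3 went from 86.1 ± 6.95 to 21.9 ± 1.42 CPM and BoM from 89.5 ± 1.71 to 19.0 ± 4.39 CPM. The log2 fold changes were -2.43, -1.97 and -2.24 (adjusted p = 1.8e-08, 4.2e-07 and 6.2e-08, edgeR). The lines carried mesenchymal markers (VIM, median 1780 CPM) with little of the luminal and receptor markers ESR1, PGR and CDH1 (medians 0.289, 0.0654 and 0.136 CPM) but more of ERBB2 and GATA3 (medians 64.5 and 7.62 CPM), and the blood and vessel marker PECAM1 did not exceed 4.67 CPM in any library. The luminal marker EPCAM, with a median of 6.43 CPM, was lower with shWDR5 in BrM3 and BoM (log2 fold changes -0.77 and -0.60, adjusted p = 0.00089 and 0.0034, edgeR), and PECAM1 was higher in LM2 (0.70, adjusted p = 0.033), a call lost without any shCtrl replicate or shWDR5 replicate 2 or 3 of LM2 (adjusted p up to 0.11). The PECAM1 call was also lost with LM2 fitted alone (adjusted p = 0.098). Libraries differed in how their counts depended on GC content, with slopes from -0.266 to 0.236 log2 units per 10% GC, and these slopes varied among replicates of a group.

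The member genes lie on 9 different chromosomes in the hg38 build. H1F0 is at chr22:37805229-37807432 on the plus strand, H1FX at chr3:129314771-129316286 (minus), H2AFZ at chr4:99948086-99950355 (minus), H2AFV at chr7:44826791-44848087 (minus) and H2AFX at chr11:119093874-119095465 (minus). H2AFY is at chr5:135334381-135399914 (minus), H2AFJ at chr12:14774405-14778002 (plus), H3F3A at chr1:226061851-226072019 (plus) and H3F3B at chr17:75776434-75785893 (minus). The canonical transcripts of H1F0, H1FX, H2AFX and H2AFJ have a single exon, while those of the others have 4 to 9. The single-exon transcripts of H1FX, H2AFX and H2AFJ are GC-rich (68.6%, 66.8% and 63.1%), that of H1F0 has 52.0% and the spliced ones range from 42.8% to 51.1%.

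H3F3A and H3F3B encode the same protein, with 0 of 136 residues different, from coding sequences that differ at 88 of 411 bases (78.6% identity). The H2A.Z genes H2AFZ and H2AFV differ at 3 of 128 residues and at 76 of 387 coding bases (80.4% identity). The proteins of each pair are therefore nearly or wholly alike. The RefSeq promoter windows of these 4 genes at the canonical start (hg38, 250 bases before to 50 after the start site, in the direction of transcription) are shown. Of the 9 genes, 8 had a window at the canonical start. H3F3A had further RefSeq windows, with start sites 885, 446 and 269 bases from the canonical one, which are not shown or described. Capitals mark matches on either strand to the CCAAT box (CCAAT), the GC box (GGGCGG), the TATA box (TATAAA), the E box (CACGTG), the cyclic AMP response element (TGACGTCA), an E2F site (TTTGGCGC) and the histone H1 box (AAACACA). Matches to 1 motif may overlap, as in H3F3A, where runs of capitals hold neighbouring GC boxes.
H3F3B, chr17:75779730-75780029, minus strand: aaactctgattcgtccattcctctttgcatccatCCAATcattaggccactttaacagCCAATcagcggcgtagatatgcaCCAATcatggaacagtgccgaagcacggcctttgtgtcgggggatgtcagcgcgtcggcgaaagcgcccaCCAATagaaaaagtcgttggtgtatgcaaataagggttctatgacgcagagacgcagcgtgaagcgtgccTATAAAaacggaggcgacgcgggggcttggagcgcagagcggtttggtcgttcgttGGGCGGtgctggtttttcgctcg
H3F3A, chr1:226062466-226062765, plus strand: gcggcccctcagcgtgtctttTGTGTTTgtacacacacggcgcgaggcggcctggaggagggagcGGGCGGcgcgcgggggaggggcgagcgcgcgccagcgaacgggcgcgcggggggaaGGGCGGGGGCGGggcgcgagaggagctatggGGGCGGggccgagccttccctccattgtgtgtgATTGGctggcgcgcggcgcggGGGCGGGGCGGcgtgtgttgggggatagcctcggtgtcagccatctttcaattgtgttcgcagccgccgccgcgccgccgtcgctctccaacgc
H2AFZ, chr4:99950226-99950525, minus strand: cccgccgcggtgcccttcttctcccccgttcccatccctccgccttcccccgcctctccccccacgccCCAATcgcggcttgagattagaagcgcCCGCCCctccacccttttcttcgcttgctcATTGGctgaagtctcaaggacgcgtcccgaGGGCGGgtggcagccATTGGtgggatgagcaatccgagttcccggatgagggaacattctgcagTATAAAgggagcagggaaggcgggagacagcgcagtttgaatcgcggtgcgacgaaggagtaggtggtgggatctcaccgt
H2AFV, chr7:44848038-44848337, minus strand: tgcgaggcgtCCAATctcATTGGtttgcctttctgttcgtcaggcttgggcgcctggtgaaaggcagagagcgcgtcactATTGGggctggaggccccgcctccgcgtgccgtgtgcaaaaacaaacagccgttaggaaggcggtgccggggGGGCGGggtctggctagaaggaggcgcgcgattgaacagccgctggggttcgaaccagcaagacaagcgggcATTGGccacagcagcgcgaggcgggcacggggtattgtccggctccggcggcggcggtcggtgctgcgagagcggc

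The H3F3B window held 4 CCAAT boxes, a TATA box beginning at -29 (the start base counted as 0) and 1 GC box after the start. The H3F3A window held 6 GC boxes, 1 CCAAT box and 1 histone H1 box, with no match to the TATA letters. H2AFZ had 3 CCAAT boxes, 2 GC boxes and a TATA box at -31, and H2AFV had 4 CCAAT boxes and 1 GC box. Among 35116 RefSeq windows of this length, 34.6% hold a CCAAT box, 45.0% a GC box, 11.5% a TATA box and 5.6% an H1 box. The E box, cyclic AMP response element and E2F letters, present in 7.3%, 1.8% and 0.7% of all windows, were not found in these 4 windows.

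To ask which variant histone mRNAs differed with the WDR5 hairpin, the shWDR5 libraries of each line were compared with its shCtrl libraries. H3F3B was the single member that rose in all 3 lines, by between 1.37 and 1.43-fold. H1F0 fell in BrM3 and BoM. The other 7 members passed the test in no line. The comparison therefore called 1 of 9 members in LM2, 2 of 9 in BrM3 and 2 of 9 in BoM (edgeR quasi-likelihood test, Benjamini-Hochberg adjusted p under 0.05), beside 6.26%, 10.7% and 16.1% of all tested genes. The median log2 fold change of the members was 0.12, 0.053 and 0.074, against -0.00091, -0.0054 and 0.015 for all tested genes. In bulk RNA, a change in the share of cells that express a gene and a change in RNA per cell cannot be told apart.

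**Figure D1:**
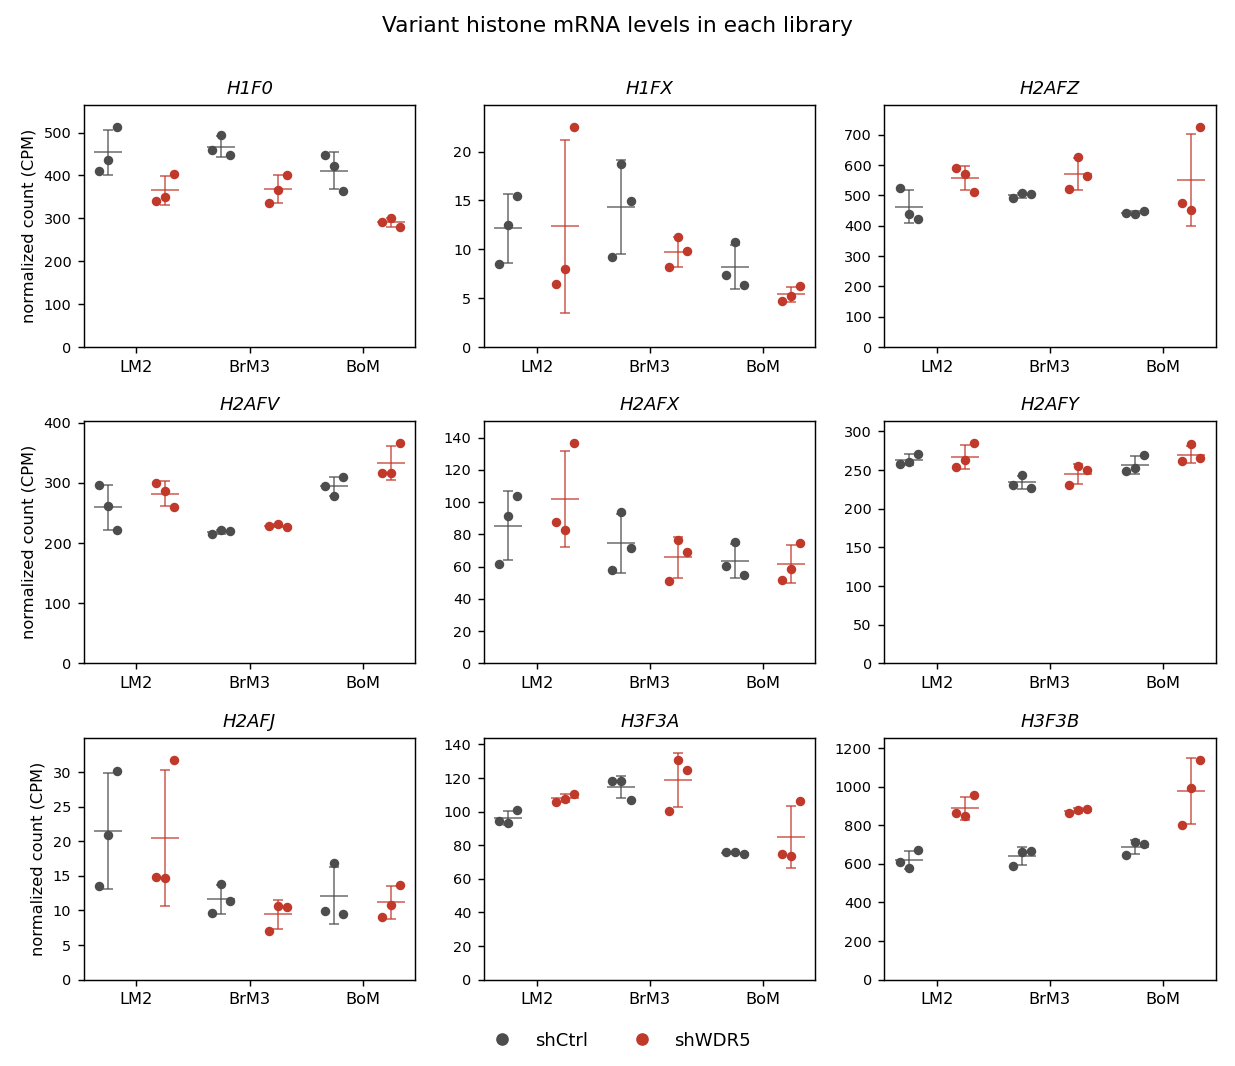
Normalized counts (CPM, linear axes from 0) of the 9 variant histone genes in each of the 18 libraries, with the mean and SD of each group of 3. The H3F3B points with shWDR5 lie above those with shCtrl in every line, from 802 to 1141 CPM against 579 to 712 CPM, and the H1F0 points with shWDR5 lie below those with shCtrl within each line.

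H3F3B, the H3.3 gene with the highest normalized count in these cells, stood at 608, 579 and 674 CPM in the 3 shCtrl libraries of LM2 and at 865, 846 and 957 CPM in its shWDR5 libraries. In BrM3 the shCtrl libraries gave 588, 664 and 669 CPM and the shWDR5 libraries 862, 877 and 887 CPM. In BoM the values were 644, 712 and 702 CPM with shCtrl and 802, 995 and 1141 CPM with shWDR5. The groups did not overlap in any line, and the shWDR5 libraries of BoM were the most spread. The log2 fold change was 0.52 (SE 0.11, adjusted p = 0.0072) in LM2, 0.45 (SE 0.11, adjusted p = 0.012) in BrM3 and 0.51 (SE 0.11, adjusted p = 0.0037) for BoM, by edgeR. These are increases of 43.3%, 36.7% and 42.8%, at percentiles 98.9, 98.4 and 97.5 of the log2 fold changes of all tested genes. Without the first shCtrl replicate of BrM3 the call in that line was lost (log2 fold change 0.39, adjusted p = 0.066). Of the 50-base stretches of H3F3B transcripts, 6.1% occur in other annotated genes, with 2.1% in the opposite-strand gene UNK. UNK had 442 to 4444 counts per library, against 13941 to 82751 for H3F3B.

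H3F3A, the other H3.3 gene, did not pass the test in any line. Its log2 fold change was 0.17 (95% confidence interval -0.089 to 0.42, adjusted p = 0.50) in LM2, 0.053 (-0.20 to 0.31, adjusted p = 0.84) in BrM3 and 0.17 (-0.088 to 0.43, adjusted p = 0.37) in BoM, by edgeR. In LM2 the shCtrl libraries gave 94.7, 93.4 and 101 CPM and the shWDR5 libraries 106, 108 and 111 CPM, which did not overlap. In BoM, 2 of the shWDR5 libraries, at 74.9 and 73.9 CPM, were at the level of the shCtrl libraries (75.9, 76.0 and 74.8 CPM), and the third stood at 106 CPM. Without that library the log2 fold change in BoM was -0.023. The 6 annotated pseudogenes of H3F3A together held between 6.08% and 14.3% as many counts as the gene, and 18.9% of the 50-base stretches of its transcripts occur in other annotated genes. Part of its reads could therefore have been assigned elsewhere or left uncounted. The pseudogenes of H3F3B, H2AFZ and H2AFV held less than 0.42% of their parents' counts.

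Since the H3F3A and H3F3B mRNAs encode the same protein, their ratio was taken within each library, where scaling between libraries does not enter. H3F3B gave 6.42, 6.20 and 6.68 counts per count of H3F3A in the shCtrl libraries of LM2 and 8.16, 7.85 and 8.64 in the shWDR5 libraries. The ratio was 4.96, 5.60 and 6.26 with shCtrl and 8.57, 6.69 and 7.10 with shWDR5 in BrM3, and 8.48, 9.36 and 9.39 with shCtrl and 10.7, 13.5 and 10.7 with shWDR5 in BoM. The shWDR5 libraries lay above the shCtrl libraries in every line. On the log2 scale the ratio rose by 0.35 in LM2, 0.41 in BrM3 and 0.35 in BoM, on average by 0.37 or 1.29-fold (exact permutation test within lines, two-sided, p = 0.00025, the smallest it can give; 0.00075 adjusted over 3 ratios). With the pseudogene counts added to their parents the difference was 0.35, which covers only reads that were counted. In the shCtrl libraries H3F3B made up 86.5% ± 0.434 of the counts of the pair in LM2, 84.8% ± 1.497 in BrM3 and 90.1% ± 0.524 in BoM (SD, n = 3), and with shWDR5 89.1% ± 0.469, 88.1% ± 1.32 and 92.0% ± 0.936. The canonical transcript has 2705 bases for H3F3B and 1070 for H3F3A, so ratios and shares of counts are not those of mRNA molecules.

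**Figure D2:**
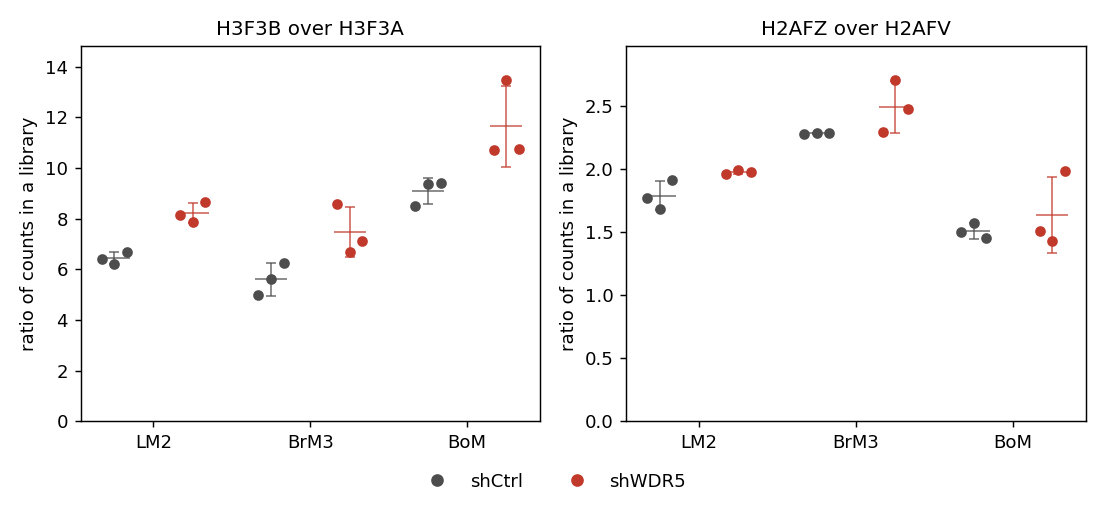
Ratio of the counts of H3F3B to H3F3A (left) and of H2AFZ to H2AFV (right) in each library, on linear axes from 0, with the mean and SD of each group of 3. The H3F3B to H3F3A ratio is higher in every shWDR5 library than in the shCtrl libraries of its line, while the H2AFZ to H2AFV groups overlap in BoM.

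H1F0, the gene of H1.0, stood at 411, 437 and 513 CPM in the shCtrl libraries of LM2 and at 341, 351 and 403 CPM in its shWDR5 libraries. BrM3 gave 460, 494 and 448 CPM with shCtrl and 337, 367 and 401 CPM with shWDR5, and BoM gave 448, 423 and 363 CPM with shCtrl and 291, 302 and 279 CPM with shWDR5. The shWDR5 libraries were the lower ones in each line, with no overlap. H1F0 fell in BrM3 (log2 fold change -0.34, SE 0.10, adjusted p = 0.042) and BoM (-0.50, SE 0.10, adjusted p = 0.0034), by edgeR, which are changes of -21.2% and -29.4%. In LM2 the log2 fold change was -0.31 (SE 0.10, adjusted p = 0.086), which did not pass the test. The BrM3 call was near the threshold and was lost on leaving out any of 8 single libraries: the shCtrl replicates 1, 2 and 3 and the shWDR5 replicates 1 and 2 of BrM3, the shCtrl and shWDR5 replicates 2 of LM2, or the shCtrl replicate 1 of BoM (adjusted p up to 0.15). After correction of each library for GC content H1F0 passed in every line (log2 fold changes -0.28, -0.29 and -0.40, adjusted p = 0.041, 0.028 and 0.0035; in LM2 the p ranged from 0.0067 to 0.22 over the alternatives with all libraries).

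H1FX, the other linker histone gene, was much lower, between 4.70 and 22.5 CPM. Its log2 fold changes in LM2, BrM3 and BoM were -0.038, -0.54 and -0.62, with adjusted p-values of 0.98, 0.40 and 0.30 (edgeR) and 95% confidence intervals of -0.81 to 0.74, -1.32 to 0.24 and -1.44 to 0.20. In LM2 the shWDR5 libraries gave 6.48, 8.01 and 22.5 CPM, so that 1 library stood above the shCtrl libraries (8.47, 12.5 and 15.5 CPM) and the others below the lowest. With no filter on low counts H1FX passed in BoM (log2 fold change -0.61, adjusted p = 0.013; 0.013 to 0.33 over the alternatives with all libraries). With GC correction its log2 fold changes in BrM3 and BoM shrank to -0.22 and -0.29 (adjusted p = 0.33 and 0.23). The ratio of H1F0 to H1FX did not pass its test (mean log2 difference 0.029, exact permutation p = 0.89). Of the 50-base stretches of H1FX, 17.1% lie in the antisense gene H1FX-AS1, to which the table gives 9 to 206 counts per library against 127 to 1898 for H1FX, and reads from the overlap cannot be told apart where strand was not used in the counting.

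The genes of H2A.Z were above their shCtrl means in each line, and neither passed the test. H2AFZ averaged 462 ± 53.9 CPM with shCtrl and 557 ± 40.1 with shWDR5 in LM2. The corresponding BrM3 values were 500.2 ± 8.21 and 571 ± 52.3 CPM, and the BoM values 443 ± 6.16 and 551 ± 152 CPM (SD, n = 3). Its log2 fold changes were 0.27, 0.19 and 0.31 (adjusted p = 0.30, 0.44 and 0.14, edgeR). The BoM value rested in large part on 1 shWDR5 library at 726 CPM, beside 475 and 452 CPM in the other two, and was 0.065 without it. H2AFV averaged 259 ± 37.1 and 282 ± 21.0 CPM in LM2, 219 ± 3.29 and 229 ± 2.12 CPM for BrM3, and 294 ± 15.6 and 333 ± 28.7 CPM for BoM, with log2 fold changes of 0.12, 0.065 and 0.18 (adjusted p = 0.55, 0.74 and 0.23). The ratio of H2AFZ to H2AFV was on average 0.12 higher with shWDR5 on the log2 scale, or 1.09-fold (exact permutation test within lines, two-sided, p = 0.025; 0.0375 adjusted over 3 ratios). The groups of this ratio overlapped in BoM, where it was 1.497, 1.58 and 1.45 with shCtrl and 1.51, 1.43 and 1.98 with shWDR5. The test was lost without the shCtrl replicate 1 or 3 or the shWDR5 replicate 3 of BoM, with differences of 0.12, 0.11 and 0.075 (exact permutation p = 0.064, 0.083 and 0.073).

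H2AFY, the gene of macroH2A1, had the least spread, with an SD of log2 CPM around the group means of 0.064, lower than in all but 1.08% of tested genes. Its levels lay between 227 and 285 CPM in all 18 libraries. The log2 fold change was 0.021 (-0.13 to 0.17) in LM2, 0.066 (-0.089 to 0.22) in BrM3 and 0.074 (-0.08 to 0.23) in BoM (95% confidence intervals; adjusted p = 0.93, 0.64 and 0.53, edgeR). These intervals leave out changes of the size seen for H3F3B. With GC correction the values were 0.050, 0.12 and 0.16 (adjusted p = 0.63, 0.19 and 0.062). Of its 50-base stretches, 25.9% lie in the opposite-strand gene PITX1-AS1.

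H2AFX, the gene of the DNA damage variant, averaged 85.5 ± 21.5 and 102 ± 29.9 CPM with shCtrl and shWDR5 in LM2. The BrM3 groups averaged 74.4 ± 18.3 and 65.7 ± 13.0 CPM and the BoM groups 63.6 ± 10.7 and 61.8 ± 11.8 CPM. The groups overlapped in every line, with log2 fold changes of 0.25, -0.18 and -0.045 (adjusted p = 0.63, 0.70 and 0.92, edgeR). H2AFJ averaged 21.5 ± 8.37 and 20.4 ± 9.83 CPM in LM2, 11.6 ± 2.11 and 9.42 ± 2.04 CPM for BrM3, and 12.1 ± 4.09 and 11.2 ± 2.39 CPM for BoM, and its groups overlapped as well. Its log2 fold changes were -0.10, -0.29 and -0.13 (adjusted p = 0.91, 0.65 and 0.83). After GC correction the log2 fold change of H2AFX was 0.33 in LM2 (adjusted p = 0.021; 0.0022 to 0.65 over the alternatives with all libraries), and its values for BrM3 and BoM were 0.098 and 0.23 (adjusted p = 0.46 and 0.073), so that its direction in the last 2 lines turned with the correction.

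**Figure D3:**
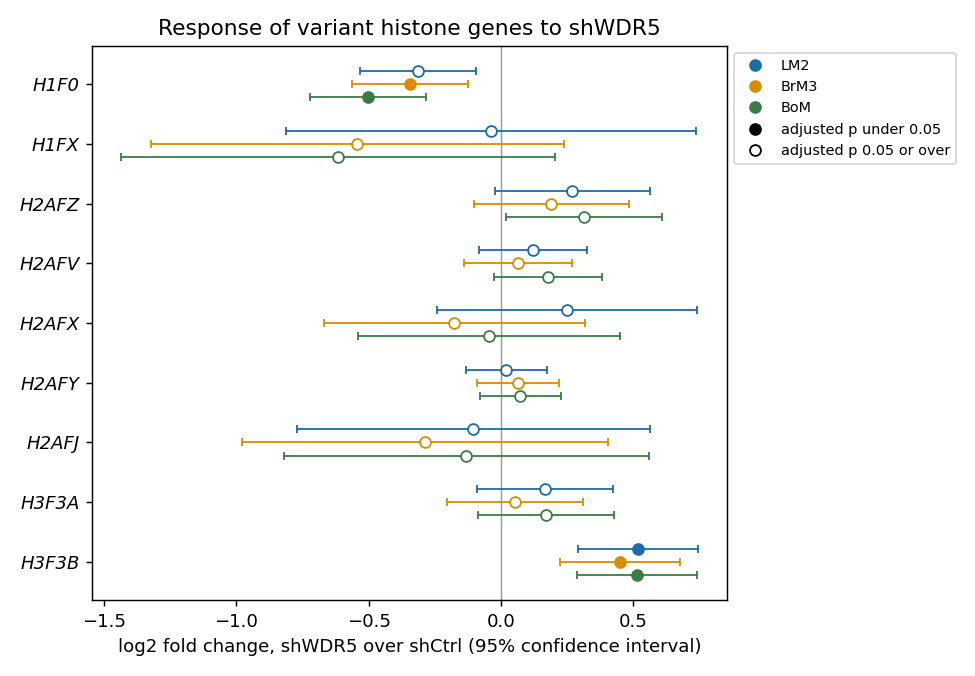
Log2 fold change of shWDR5 over shCtrl for the 9 genes in LM2, BrM3 and BoM, with 95% confidence intervals from the edgeR fit. Filled points passed an adjusted p of 0.05 (H3F3B in all 3 lines, H1F0 in BrM3 and BoM), and the intervals of H1FX, H2AFX and H2AFJ are the widest.

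H1FX, H2AFJ and H2AFX, the GC-rich single-exon genes, differed more among replicates than the other members. The SD of their log2 CPM around the group means was 0.52, 0.45 and 0.33, at percentiles 97.9, 96.6 and 90.2 of all tested genes, against 0.064 to 0.18 for the other 6. These deviations ran together, with correlations over the 18 libraries after removal of the group means of 0.91 between H1FX and H2AFJ, 0.95 between H2AFX and H2AFJ and 0.90 between H1FX and H2AFX, each pair sharing libraries, depth and high GC content. The highest library of a group was the one with the highest GC slope (positive or least negative) in 4 of 6 groups for each of these 3 genes, but also in 4 of 6 for H2AFY, H3F3A and H3F3B and in 5 of 6 for H1F0, and in 1 of 6 for H2AFZ and H2AFV. With each library corrected for GC content the SD was 0.22, 0.21 and 0.12, and the median over all tested genes went from 0.17 to 0.13. The SD of H3F3A and H3F3B went the other way, from 0.15 to 0.19 and from 0.13 to 0.17.

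**Figure D4:**
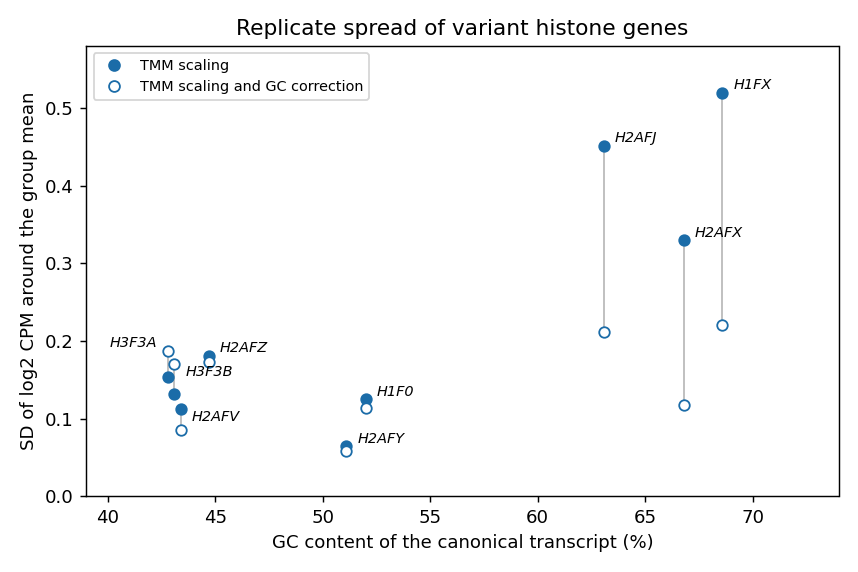
SD of log2 CPM around the group means (6 groups of 3 libraries) for each variant histone gene against the GC content of its canonical transcript, before (filled) and after (open) correction of each library for GC content. H1FX, H2AFJ and H2AFX, over 63% GC, drop from 0.33 to 0.52 to between 0.12 and 0.22, and the other 6 genes stay below 0.2.

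Counts of members whose groups did not overlap were 3 of 9 in LM2 (H3F3B, H3F3A and H1F0), 4 of 9 in BrM3 (H3F3B, H2AFZ, H2AFV and H1F0) and 5 of 9 in BoM (H3F3B, H2AFZ, H2AFV, H1F0 and H1FX). Over all tested genes 25.2%, 35.5% and 30.2% had groups that did not overlap. H3F3B and H1F0 were on these lists in each line.

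To ask whether the lines differed in their response, the fold changes were compared between lines in the same fit. None of the 9 members differed between LM2, BrM3 and BoM, with 0 of 9 at an unadjusted p under 0.05 and 0 called by edgeR or DESeq2 in each pair. Among all tested genes the test called 1 gene for BrM3 against LM2 (0.00828%), 0 genes for BoM against LM2 (0%) and 1 gene for BoM against BrM3 (0.00828%), with 352, 625 and 349 genes at an unadjusted p under 0.05 and 18, 40 and 4 genes called by DESeq2. For H3F3B the difference was -0.068 (95% confidence interval -0.39 to 0.25) for BrM3 minus LM2, -0.0055 (-0.33 to 0.31) for BoM minus LM2 and 0.063 (-0.26 to 0.38) for BoM minus BrM3. For H1F0 it was -0.030 (-0.34 to 0.28), -0.19 (-0.50 to 0.12) and -0.16 (-0.47 to 0.15).

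The levels of the members in the untargeted cells were compared among the 3 lines. Per kilobase of canonical transcript, the shCtrl libraries of LM2 gave 534 ± 62.2 CPM per kb for H2AFZ, 229 ± 18.03 for H3F3B, 206 ± 24.2 for H1F0, 137 ± 3.61 for H2AFY, 90.0 ± 3.75 for H3F3A, 85.7 ± 12.2 for H2AFV, 53.7 ± 13.5 for H2AFX, 34.7 ± 13.5 for H2AFJ and 8.02 ± 2.32 for H1FX (SD, n = 3). The neighbours H3F3B and H1F0, H3F3A and H2AFV, and H2AFX and H2AFJ overlapped in this order. By this length H2AFZ was the highest member and H1FX the lowest in the shCtrl libraries of all 3 lines. H3F3A stood above H2AFV in LM2 and BrM3 (107 ± 6.23 against 72.3 ± 1.09 CPM per kb) and below it in BoM (70.6 ± 0.631 against 97.2 ± 5.16). The order among genes rests on the length used. All annotated exons together span 3332 bases for H2AFJ, 2270 for H2AFZ and 3826 for H3F3A, against canonical transcripts of 620, 866 and 1070 bases. The order by that other length was not taken.

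Between shCtrl cells, 2 of 9 members differed in each pair of lines, beside 47.6% of all tested genes for BrM3 against LM2, 51.8% for BoM against LM2 and 37.6% for BoM against BrM3. H3F3A was lower in BoM, by a log2 fold change of -0.35 against LM2 (adjusted p = 0.023, edgeR) and -0.60 against BrM3 (adjusted p = 0.0010). H2AFV was higher in BoM than in BrM3 (0.43, adjusted p = 0.0025) and lower in BrM3 than in LM2 (-0.24, adjusted p = 0.047). H2AFJ was higher in LM2, with log2 fold changes of -0.90 for BrM3 and -0.83 for BoM (adjusted p = 0.028 and 0.039). The H2AFJ groups overlapped in both comparisons. The 3 pairs share their shCtrl libraries. Other filters ended the H2AFV call between BrM3 and LM2 (adjusted p = 0.068 with filterByExpr and 0.25 with no filter), as did leaving out single libraries in 12 of 18 fits (adjusted p up to 0.25). These were the fits without shCtrl replicate 1 or 2 or shWDR5 replicate 1 or 2 of LM2, any shCtrl replicate or shWDR5 replicate 2 or 3 of BrM3, or shCtrl replicate 2 or 3 or shWDR5 replicate 2 of BoM. The H2AFJ calls ended without shCtrl replicate 2 or 3 of LM2 in both pairs, without shCtrl replicate 1 or 3 of BrM3 in the first (adjusted p up to 0.17) and without shCtrl replicate 1 or 3 of BoM in the second (adjusted p up to 0.23). Without shCtrl replicate 3 of LM2, the H2AFJ log2 fold changes were -0.57 and -0.50. With GC correction the H2AFJ value for BoM was -0.48 (adjusted p = 0.013). The H3F3A call between BoM and LM2 ended without shCtrl replicate 3 of LM2 or of BoM (adjusted p = 0.072 and 0.060).

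The proteins that deposit or read these variants were described from lists of genes. The list counts here and below stand beside 6.26%, 10.7% and 16.1% of all tested genes called in LM2, BrM3 and BoM. Of 8 genes for H3.3 deposition, none rose or fell in LM2 (0 by edgeR and by DESeq2, 2 at an unadjusted p under 0.05), 1 rose in BrM3 and 3 rose in BoM. These were DAXX, the H3.3 chaperone (log2 fold change 0.35, adjusted p = 0.021 in BrM3; 0.32, adjusted p = 0.024 in BoM), ASF1A, which hands H3 and H4 to HIRA (0.60, adjusted p = 0.0044 in BoM), and DEK (0.41, adjusted p = 0.047 in BoM). The median of the list was 0.15, 0.10 and 0.30. The DAXX call in BrM3 ended without replicate 2 or 3 of either hairpin of that line, and that in BoM without its shCtrl replicate 1 or shWDR5 replicate 2 (adjusted p up to 0.11 and 0.099). The DEK call ended in 12 of 18 such fits (adjusted p up to 0.19), namely without shCtrl replicate 2 or 3 or shWDR5 replicate 1 or 2 of LM2, shCtrl replicate 1 or 3 or shWDR5 replicate 2 of BrM3, and shCtrl replicate 1 or 2 or any shWDR5 replicate of BoM, and the ASF1A call in 0. With each line fitted alone the DAXX and DEK calls ended, and with no filter the DAXX call in BoM did (adjusted p up to 0.082). Of 14 genes for H2A.Z exchange, ZNHIT1, a subunit of the SRCAP complex, fell in LM2, BrM3 and BoM (log2 fold changes -1.25, -0.75 and -1.24, adjusted p = 0.0011, 0.021 and 0.00056). No other gene of the list passed in the fit as reported. With GC correction 1, 1 and 2 genes of the list were called higher and 1, 1 and 2 lower in LM2, BrM3 and BoM. The ZNHIT1 call in BrM3 ended without shCtrl replicate 2 or 3 or shWDR5 replicate 1 or 3 of that line (adjusted p up to 0.086), and those in LM2 and BoM in 0 of 18 fits. ZNHIT1 ranged from 7.84 to 29.7 CPM, and the median of the list was -0.022, 0.023 and 0.016.

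Of 9 genes for the kinases, readers and ligases of H2A.X, TP53BP1, a reader of damaged chromatin, fell in BoM (log2 fold change -0.50, adjusted p = 0.014, edgeR), a call that ended without shCtrl replicate 1 or shWDR5 replicate 3 of BoM (adjusted p up to 0.072). The TP53BP1 call also ended with BoM fitted alone (adjusted p = 0.099). None passed in LM2 or BrM3, where 1 and 2 genes had an unadjusted p under 0.05 and DESeq2 called 1 and 1. The TP53BP1 log2 fold changes there were -0.42 and -0.41 (adjusted p = 0.064 and 0.055, edgeR), near that in BoM. With GC correction 0, 0 and 2 genes of the list were called higher and 1, 2 and 1 lower in LM2, BrM3 and BoM. Of 14 tested general histone chaperones, 1 rose in LM2, 3 rose in BrM3, and 3 rose and 1 fell in BoM, with medians of 0.13, 0.17 and 0.22. RBBP4, a histone H4 binding subunit of CAF-1, rose in all 3 lines (0.39, 0.28 and 0.28, adjusted p = 0.0092, 0.041 and 0.031). RBBP4 lost its call in every line fitted alone, and in BrM3 and BoM also with no filter (adjusted p up to 0.059, 0.13 and 0.16). Its call ended in 3, 10 and 4 of 18 fits without single libraries (adjusted p up to 0.060, 0.16 and 0.12). In LM2 these were the fits without its shCtrl replicate 2 or 3 or shWDR5 replicate 1, in BrM3 those without any replicate of that line, shCtrl replicate 2 or 3 or shWDR5 replicate 2 of LM2 or shCtrl replicate 3 of BoM, and in BoM those without its shCtrl replicate 1 or 2 or shWDR5 replicate 2 or 3. Of 11 other variant histone genes, CENPA, the centromeric H3, was the single one tested and passed in no line (0 at an unadjusted p under 0.05, 0 by edgeR and by DESeq2), 4 had 0 counts in all libraries, and H2AFY2 and H3F3C stayed below 2 CPM.

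Replication-dependent histone genes, whose mRNAs mostly end in a stem-loop without a poly(A) tail and are poorly captured by poly(A) selection, were set beside the variants. Of 86 such genes by symbol, 12 were tested, and 11 rose in LM2, 10 in BrM3 and 11 in BoM, with median log2 fold changes of 1.15, 0.86 and 1.19. HIST1H2BJ rose by 1.61, 1.23 and 1.70 (adjusted p = 1.7e-06, 2.1e-05 and 3.3e-07, edgeR) and HIST1H2BK by 1.43, 1.23 and 1.19 (adjusted p = 0.0021, 0.0042 and 0.0037). These genes resemble each other in sequence, and the split of their reads is uncertain. The genes passed the filter through their highest library. A gene near the filter could therefore be tested because it was high with shWDR5, which favours genes that rose. The counts and medians cover the tested genes alone and are no measure of all 86. Among all 12081 tested genes, 179, 347 and 653 were called higher in LM2, BrM3 and BoM. Of 8 genes listed as factors of replication-dependent histone genes or their mRNA, CPSF3, the endonuclease of the 3' end, fell in all 3 lines (-0.32, -0.39 and -0.37, adjusted p = 0.036, 0.0079 and 0.0079), and 2 others rose in BoM. The CPSF3 call in LM2 ended without any replicate of LM2 or shCtrl replicate 1 or 3 of BrM3 (adjusted p up to 0.16), and with no filter it ended in each line (adjusted p up to 0.31). It also ended with LM2 or BoM fitted alone, and in LM2 with filterByExpr.

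Cell cycle genes were read as measures that could move with histone expression. Of 19 S phase genes, MCM4 rose in all 3 lines (0.30, 0.27 and 0.28; adjusted p = 0.033, 0.039 and 0.025), 1 other fell in BrM3 and in BoM, and the medians of the list were 0.037, -0.0017 and 0.033. The MCM4 call ended in every line with no filter and with each line fitted alone (adjusted p up to 0.17). It also ended in LM2 without its shCtrl replicate 2 or 3 or any shWDR5 replicate, in BrM3 without any of its shCtrl replicates, shWDR5 replicate 2 or 3 or the shWDR5 replicate 2 of LM2, and in BoM without its shCtrl replicate 2 or shWDR5 replicate 2 or 3 (adjusted p up to 0.15). None of 11 mitosis genes passed in any line by edgeR, with 0, 1 and 0 at an unadjusted p under 0.05 and 0, 1 and 0 called by DESeq2, and their medians were 0.085, 0.10 and 0.18. The part of the cell cycle in the changes of H3F3B and H1F0 was not tested.

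The genes whose log2 CPM ran most closely with H3F3B over the 18 libraries were BTF3, a component of the nascent polypeptide-associated complex (Pearson correlation 0.92), the H1.2 gene HIST1H1C (0.92) and the ribosomal protein gene RPS26 (0.92). All points share the libraries and the shWDR5 difference. BTF3 rose in all 3 lines (0.42, 0.34 and 0.43; adjusted p = 0.025, 0.049 and 0.011), as did HIST1H1C (1.20, 1.18 and 1.15; adjusted p = 0.00048, 0.00046 and 0.00026), and RPS26 did not pass (0.56, 0.48 and 0.44; adjusted p = 0.063, 0.082 and 0.093). The BTF3 calls ended in 5, 13 and 1 of 18 fits without single libraries (adjusted p up to 0.13, 0.14 and 0.055): in LM2 without its shCtrl replicate 2 or 3 or any shWDR5 replicate, in BrM3 without any replicate of that line, shCtrl replicate 2 or 3 or shWDR5 replicate 1 or 2 of LM2, or shCtrl replicate 2 or 3 or shWDR5 replicate 2 of BoM, and in BoM without its shWDR5 replicate 3. The HIST1H1C calls ended in 0 of 18. With LM2 or BoM fitted alone, the BTF3 call of that line ended (adjusted p = 0.057 and 0.071, edgeR).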

How the data were processed

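RNA from 18 samples was sequenced as paired-end stranded mRNA libraries. The authors aligned reads to hg38 with STAR 2.7.0 and deposited raw read counts for 58815 genes, against the annotation their methods call GENCODEv96. The strand setting was not given in the sources used here. A second deposited file holds the authors' own log2 fold changes and adjusted p-values for shWDR5 over shCtrl and was not used. Samples were grouped by line and hairpin from their titles. The labels name BrM2 where the study names BrM3. In 12 of 18 samples the source name gives another organ than the title and the cell line label, which match each other and were used. Columns marked "wd" were read as shWDR5 and those marked "ad" as shCtrl, the one other group of each line. No column of per-sample values went unused (0 columns). The methods describe spike-in RNA, but the table holds 0 spike-in rows, so total RNA per cell cannot be read from these counts.

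The 9 members and the gene lists were chosen with earlier results of these data known. Genes were kept where the highest normalized count exceeded 145.7, the threshold with the highest smoothed Jaccard index between replicates (100 thresholds from 1 to 200), which left 12081. Counts were fitted with edgeR 4.0.16 (R 4.3.3) by the quasi-likelihood method after TMM scaling, in 1 fit of 6 groups with 12 residual degrees of freedom. A gene was called at a Benjamini-Hochberg adjusted p under 0.05 over all tested genes. CPM are TMM-scaled counts relative to 1000000 counts on tested genes. Ratios of 2 members were compared by an exact permutation test of shCtrl and shWDR5 within lines (8000 arrangements, two-sided). The fits were tested on simulated data. Gene coordinates, canonical transcripts, GC content and coding sequences (the longest open reading frame) are from GENCODE release 44, and promoter windows from RefSeq, both on hg38. Current symbols differ from those in the table (H3-3B for H3F3B, MACROH2A1 for H2AFY), and genes were matched by Ensembl identifier. The named genes are all members, WDR5, list genes called in all 3 lines or else in at least 1, the 2 replication-dependent histone genes with the largest mean change, and the 3 genes most correlated with H3F3B; H2AFY2, H3F3C and the cell type markers come from the lists, and overlapping antisense genes from the annotation.

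Library totals ranged from 17485841 to 119667013 counts, and the members had between 124 and 82751 counts per library, so counting error was small beside replicate error for most. The 18 replicate pairs within groups differed by more than sampling noise (chi-square per gene 5.15 to 90.6). Alternatives were DESeq2 1.42.0, RLE scaling, filterByExpr (18428 genes), no filter (41236 genes), each line alone, a replicate block, GC correction (loess of log2 CPM, span 0.5, prior count 2, GC content known for 99.84% of tested genes), both together, and leaving out each library. For the ratios, alternatives were chosen after seeing the data.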

Additional observations from a re-analysis of the deposited data

How the results depend on the processing

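H3F3B kept its direction in all 26 alternative fits of each line and was called in every one of them, except in BrM3 without the shCtrl replicate 1. Of 246 member values under the other settings, 225 kept their direction and their side of the threshold, 4 lost the call, 10 gained one and 7 reversed. H1F0 in BrM3 and H2AFV in shCtrl BrM3 against LM2 were lost with filterByExpr (adjusted p = 0.095 and 0.068) and with no filter (0.17 and 0.25). The reversals were H1FX in LM2 with DESeq2 (0.020) and, with GC correction without and with the replicate block, H2AFX in BrM3 (0.098 and 0.096) and BoM (0.23 and 0.22) and H2AFJ in BoM (0.13 and 0.13), none called before and 1 called after (H2AFX in BoM with the block, adjusted p = 0.014; 0.014 to 1 over its alternatives with all libraries). The H1F0 to H1FX ratio reversed with GC correction (-0.13). The cause was not tested.

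Leaving out 1 library gave log2 fold changes of -0.76 to 0.28 for H1FX, -0.012 to 0.41 for H2AFX, -0.027 to 0.055 for H2AFY and -0.55 to 0.22 for H2AFJ in LM2, -0.33 to 0.027 for H2AFX and -0.022 to 0.16 for H3F3A in BrM3, and -0.21 to 0.098 for H2AFX, -0.31 to 0.19 for H2AFJ and -0.023 to 0.26 for H3F3A in BoM, and -0.072 to 0.19 for the H1F0 to H1FX ratio. The members called numbered 1 to 1 in LM2, 0 to 2 in BrM3, 2 to 2 in BoM, and between shCtrl cells 0 to 3 (BrM3 and LM2), 0 to 4 (BoM and LM2) and 2 to 3 (BoM and BrM3). All genes called numbered 384 to 990 in LM2, 730 to 1559 in BrM3, 1169 to 2321 in BoM, and 0 to 2, 0 to 8 and 0 to 1 for the differences BrM3 minus LM2, BoM minus LM2 and BoM minus BrM3.

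The fit as reported called 756, 1298 and 1946 genes in LM2, BrM3 and BoM. GC correction called 2088, 3005 and 3543 genes, with 49.1%, 44% and 44.7% lower in place of 76.3%, 73.3% and 66.4%. DESeq2 called 1142 in LM2, and each line alone 290 in LM2 and 901 in BoM. The labels do not say what a replicate number marks, and same-numbered deviations correlated over 0.1 in 7 of 9 pairs (-0.178 to 0.729), so the pairing was not established. The replicate block called 1434, 2277 and 3172 genes and 2 members in LM2, where H1F0 passed (adjusted p = 0.027), and with GC correction 3520, 4550 and 4898 genes, with 4 members in LM2 and 6 in BoM, where besides those named H2AFZ passed in both (adjusted p = 0.0498 and 0.045) and H2AFV and H2AFY in BoM (0.047 and 0.036). GC correction alone called 3 members in LM2. Filtering with filterByExpr or not at all left 1 member called in BrM3. Differences in the order BrM3 minus LM2, BoM minus LM2 and BoM minus BrM3 were called for 18, 40 and 4 genes by DESeq2, 16, 27 and 9 with no filter, 12, 29 and 3 with GC correction, 8, 6 and 0 with the replicate block and 44, 92 and 9 with both, and filterByExpr called 0 for BrM3 minus LM2, but no member in any. Between shCtrl cells, members called were 1 with filterByExpr or no filter and 4 with GC correction for BrM3 and LM2, 4 with no filter for BoM and LM2, and 4 with GC correction for BoM and BrM3. With GC correction 3, 3 and 4 of 8 H3.3 deposition genes, 2, 7 and 7 of 14 chaperones and 3, 2 and 3 of 11 mitosis genes were called higher in LM2, BrM3 and BoM. Depth limits H1FX and H2AFJ most, at 127 to 1898 and 124 to 3701 counts.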
